A study of Mus musculus with 2 samples.

Results

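The genes described here encode the mouse receptors for serotonin, dopamine, noradrenaline and histamine. They were chosen by symbol alone (Htr, Drd, Adra, Adrb and Hrh genes), which gave 32 of the 55536 annotated genes: 14 serotonin, 5 dopamine, 9 noradrenaline and 4 histamine receptor genes. Their levels were read in ribosomal-RNA-depleted total RNA from the left cerebral cortex of female B6CASTF1/J mice at 14 days of age, which are F1 hybrids of the inbred strains C57BL/6J and CAST/EiJ. The data hold 2 libraries of this single group, which the labels call biological replicates 1 and 2, each started from 300 ng of RNA with synthetic ERCC spike-in transcripts. Both libraries carry a description with 3 females and the same donor entry, but the tissue entry repeats the 3 females for replicate 1 only and names 1 female for replicate 2, so the number of mice per library is not known. With no second condition, the comparisons are between genes, between transcripts of a gene and between the 2 libraries.

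Nearly all of these receptors are G protein-coupled receptors, which respond to transmitter released by small groups of brainstem and hypothalamic neurons whose axons reach the cortex. Receptors coupled to Gs raise cyclic AMP, those coupled to Gi lower it and dampen transmitter release, and those coupled to Gq act through phospholipase C and calcium. The 5-HT3 receptor is the exception, an ion channel that serotonin opens directly.

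The gene totals of replicates 1 and 2 were 33.4M and 32.0M expected counts, and ERCC rows took 0.359% and 0.361% of all counts. Markers of cortical excitatory neurons were high in both libraries (Camk2a 891 ± 36.0, Slc17a7 757 ± 20.2 and Tbr1 55.1 ± 2.24 TPM, mean ± SD, n = 2). Markers of myelinating oligodendrocytes, choroid plexus and striatum differed between the libraries, and their values stand beside the receptors below. TPM, in which all transcripts of a library are scaled to a fixed total, is a level per transcript length, and the SDs measure only the spread between these 2 libraries.

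Detection was set at a level of at least 1 TPM in each library. By this measure 23 of the 32 receptor genes (71.9%) were detected, against a background of 58.8% of 22028 protein-coding genes. Another 2, Htr1d among them, passed 1 TPM in replicate 2 only, and 7 stayed below it in both libraries: Adrb3, Drd3, Adra2b, Drd4, Htr2b, Htr3b and Hrh4. Most receptor messages were scarce. The median of the detected members was 6.35 TPM, while that of all detected protein-coding genes was 16.2 TPM, and the 32 members together made up 219 TPM in replicate 1 and 211 TPM in replicate 2. Counts were nevertheless large enough to measure most of them, with 18 members at 100 expected counts or more in both libraries.

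Noradrenaline receptors held 40.9% ± 1.34 of the summed receptor TPM, serotonin receptors 26.6% ± 3.91, histamine receptors 22.2% ± 0.791 and dopamine receptors 10.2% ± 1.77 (SD, n = 2). The serotonin share was 23.9% in replicate 1 and 29.4% in replicate 2, and its difference between libraries lay mostly in 1 gene, Htr2c. By main G protein, members coupled to Gi held 38.4% ± 1.93 of the sum, those coupled to Gq 36.3% ± 0.857, those coupled to Gs 24.1% ± 1.18 and the 5-HT3 channel genes 1.18% ± 0.105. In replicate 2 the Gi and Gq shares were nearly equal, at 37.1% and 36.9%.

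**Figure D1:**
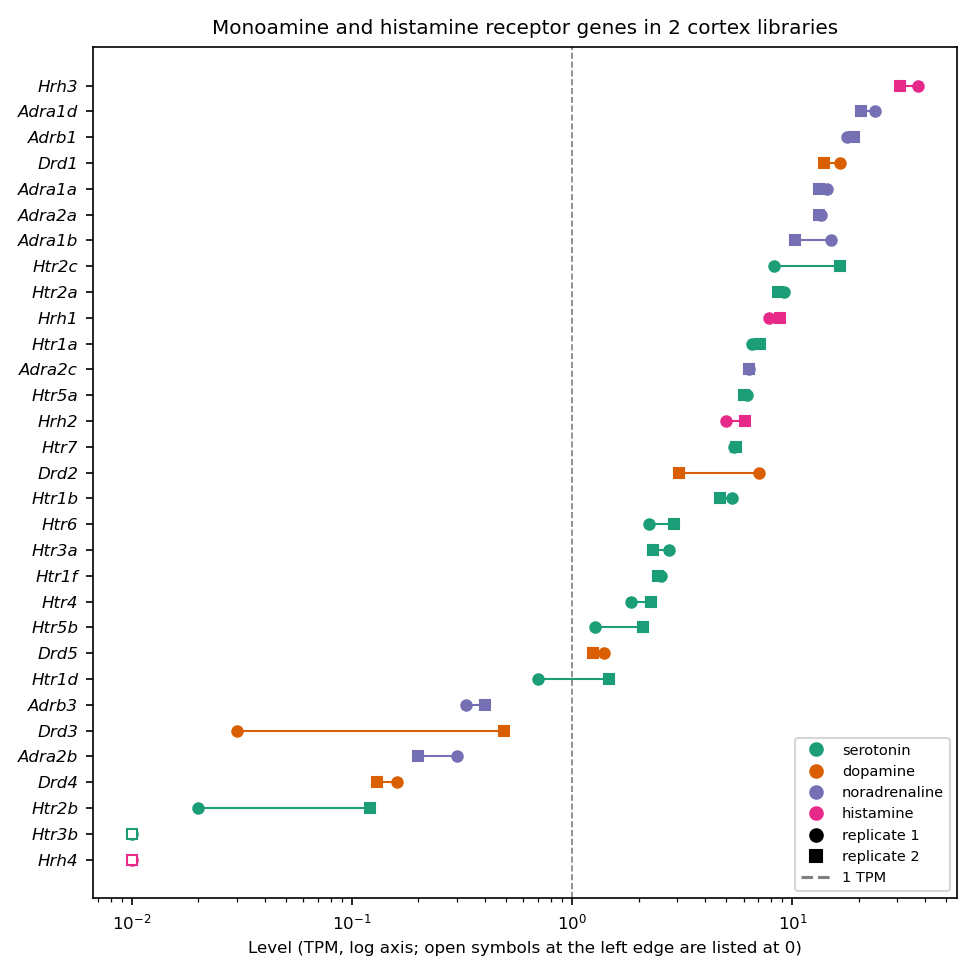
Level of the receptor genes reported here in TPM on a log axis, with a circle for replicate 1 and a square for replicate 2, ordered by the mean and coloured by transmitter. Hrh3 stands highest at 37.1 and 30.95 TPM, the dashed line marks 1 TPM, and Htr3b and Hrh4 (open symbols) are listed at 0.

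In the plot of levels by gene, the highest 3 genes, Hrh3, Adra1d and Adrb1, did not overlap in their library values with the next gene in the order. Among all 31 pairs of neighbours, 19 overlapped, so the order within the middle of the plot is not resolved by these libraries. In a second deposited quantification, Adra1d (33.7 and 28.5 TPM) and Adrb1 (26.0 and 29.2 TPM) did overlap. Taken alone, the main Hrh3 transcript, Hrh3-201 (28.7 and 23.2 TPM), overlapped Adra1d (23.7 and 20.6 TPM) in the first quantification. The long horizontal lines belong to Htr2c and Drd2 among the detected genes and to Drd3 and Htr2b among the scarce ones.

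Among the noradrenaline receptors, all 3 alpha-1 genes, which act through Gq, were well expressed. In replicates 1 and 2, Adra1d stood at 23.7 and 20.6 TPM (915 and 760 counts). Adra1a was at 14.3 and 13.2 TPM and Adra1b at 14.9 and 10.3 TPM, and the library values of these 2 genes overlap. Adra1d exceeded Adra1a in both libraries, by 1.65-fold and 1.56-fold.

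The alpha-2 genes encode Gi-coupled receptors that include the autoreceptors of noradrenergic axons. Adra2a was at 13.5 and 13.3 TPM and Adra2c at 6.35 and 6.34 TPM, the closest agreement between libraries of any detected member. Adra2b was nearly absent, at 0.300 and 0.200 TPM on 25 and 16 counts. The 3 proteins are close relatives: in the translated coding sequences, Adra2a was 53.2% identical to Adra2b and 54.8% identical to Adra2c (identical aligned residues over the length of the shorter protein). Within this trio the levels thus spanned from 13.4 ± 0.191 down to 0.250 ± 0.0707 TPM (mean ± SD, n = 2).

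Among the beta receptors, which act through Gs, Adrb1 was abundant, at 17.7 and 19.0 TPM on 1054 and 1068 counts. Adrb3, best known from fat tissue, stood at 0.330 and 0.400 TPM on 13 and 16 counts. Adrb1 exceeded Adrb3 53.7-fold in replicate 1 and 47.4-fold in replicate 2 in TPM. An antisense gene, Gm45470, overlaps Adrb3 and held 14 and 18 counts, and since the sources used here do not give the strand setting of the counting, the level of Adrb3 is uncertain.

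Serotonin receptors coupled to Gi comprise the 5-HT1 and 5-HT5 genes. Htr1a, the main inhibitory serotonin receptor of cortical pyramidal cells, was at 6.56 and 7.10 TPM. Htr5a was close to it, at 6.20 and 6.01 TPM, and Htr1b, the receptor of axon terminals, at 5.34 and 4.71 TPM. An antisense gene over Htr1b, D430036J16Rik, held 71 and 66 counts beside the 414 and 394 of Htr1b. Htr1f followed at 2.52 and 2.45 TPM, and Htr1d at 0.700 and 1.47 TPM. Htr5b, whose human counterpart is a pseudogene, stood at 1.27 and 2.09 TPM. Htr5a and Htr5b form the most similar pair of proteins among the 32 (69.5% identity), and Htr5a was the higher in both libraries, by 4.88-fold and 2.88-fold. The next pair, Htr1b and Htr1d (61.8% identity), was separated 7.63-fold and 3.20-fold.

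The 5-HT2 genes encode Gq-coupled receptors. Htr2a, the receptor through which serotonergic hallucinogens act in the cortex, was at 9.20 and 8.63 TPM on 1087 and 977 counts. Htr2c was at 8.21 and 16.5 TPM, on 809 and 1551 counts, so the order of these 2 genes differs between the libraries. Htr2b was nearly absent, with 1 and 5 counts. That gene lies inside Psmd1, a proteasome subunit gene on the opposite strand with 3235 and 3118 counts, so even these few reads are uncertain.

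Htr2c messages come in a full-length form and in a truncated form that joins from an earlier donor site inside a coding exon. The exon is printed here because the truncated form lacks its last 95 bases, and because the bases that adenosine deaminases edit in this message lie within them. In the exon at chrX:147169570-147169770 (mm10, plus strand, from the GENCODE M21 transcripts) the capitals mark those 95 bases, chrX:147169676-147169770, and the second line gives the 5 codons 157 to 161 (chrX:147169686-147169700) that hold the edited adenosines.
Htr2c exon: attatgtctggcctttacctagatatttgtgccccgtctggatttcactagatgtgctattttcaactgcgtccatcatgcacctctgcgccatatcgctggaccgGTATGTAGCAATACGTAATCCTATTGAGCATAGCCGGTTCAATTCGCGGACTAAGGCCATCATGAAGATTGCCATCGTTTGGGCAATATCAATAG
Htr2c edited codons: ATACGTAATCCTATT
The coding sequence is 1377 bases in the full-length form (Htr2c-201) and 516 bases in the truncated form (Htr2c-207), whose product lacks the later membrane-spanning segments. Among the reads assigned to these forms and to the other full-length transcript, Htr2c-202, the truncated form took 24.6% in replicate 1 (196 of 797 estimated counts) and 30.2% in replicate 2 (463 of 1531). In the second deposited quantification its share was lower, 13.2% and 22.2%. It was higher in replicate 2 under both, and the size of the share depends on the quantification. The edited positions themselves cannot be read from these files.

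The other serotonin receptors were scarce, with 1 exception. Htr7, which is coupled to Gs, was at 5.42 and 5.52 TPM, while the Gs-coupled Htr6 stood at 2.22 and 2.91 TPM and Htr4 at 1.85 and 2.28 TPM. These are gene totals. Transcripts annotated as coding held only 42.9% and 69.3% of the Htr7 TPM, against 100% for Htr6 and Htr4. Of the 5-HT3 channel subunits, Htr3a, the subunit that marks a class of cortical interneurons, was at 2.74 and 2.33 TPM on 111 and 91 counts. Htr3b, which cannot form a channel without Htr3a, was listed at 0 in both libraries. A count of 0 allows up to 0.0899 and 0.0937 CPM, counts scaled to the library's gene counts (3 counts per library, counting error only), and the second quantification gave Htr3b 1 count in each library. All 7 markers of the interneuron class that carries 5-HT3A were detected, led by Cck (306 ± 14.9 TPM), Npy (87.9 ± 5.16 TPM) and Lamp5 (83.1 ± 8.35 TPM). The remaining markers were Reln (49.7 ± 5.73 TPM), Vip (19.6 ± 0.0707 TPM), Adarb2 (10.7 ± 1.48 TPM) and Ndnf (6.92 ± 0.792 TPM). These are levels in bulk tissue and not levels of that class.

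Dopamine receptors fall into the Gs-coupled pair Drd1 and Drd5 and the Gi-coupled Drd2, Drd3 and Drd4. Drd1 had the highest level, at 16.4 and 13.9 TPM on 719 and 570 counts, and Drd5 stood at 1.39 and 1.24 TPM on 91 and 78 counts. These proteins are 59.0% identical, and Drd1 exceeded Drd5 11.8-fold and 11.2-fold in TPM. A large part of the TPM of Drd1 rests on few reads. The 405-base noncoding transcript Drd1-203 held 44.5% and 46.1% of the gene's TPM on 47.9 and 40.4 estimated counts, because TPM divides by length. The coding transcripts of Drd1 alone gave 9.10 and 7.50 TPM. In the second quantification the short transcript held 2.81 counts in replicate 1 and 0 in replicate 2, and Drd1 had rank 9 in the order of members rather than rank 4.

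Drd2 was at 7.04 and 3.06 TPM, on 370 and 154 counts. Drd3 had 1 count in replicate 1 and 16 in replicate 2 (0.0300 and 0.490 TPM), and Drd4 had 9 and 7 counts (0.160 and 0.130 TPM). The Drd2 message is known in a long and a short form, which differ by 1 exon of the third intracellular loop. That exon is printed because its reads would separate the forms, whereas the annotation used for counting holds a single Drd2 transcript that contains it, so all Drd2 reads were assigned to the long form and the forms cannot be told apart here. It spans chr9:49403194-49403280 (mm10, plus strand, 87 bases, from the GENCODE M21 transcripts), and all of its bases are in capitals.
Drd2 exon: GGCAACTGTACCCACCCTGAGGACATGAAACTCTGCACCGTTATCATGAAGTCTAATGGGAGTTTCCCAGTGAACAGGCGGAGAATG

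Histamine receptors gave both the highest and one of the lowest values of the whole set. Hrh3, the Gi-coupled receptor that restrains the release of histamine and other transmitters from axons, was at 37.1 and 30.95 TPM, on 1831 and 1424 counts. This placed it above 83.9% of protein-coding genes. Hrh1, coupled to Gq and the target of sedating antihistamines, was at 7.79 and 8.75 TPM, and Hrh2, coupled to Gs, at 4.99 and 6.06 TPM. Hrh4, known mainly from immune cells, was listed at 0 in both libraries, with the same counting limit as Htr3b and 1 count in replicate 1 of the second quantification.

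Several Hrh3 forms differ in the third intracellular loop, the part that contacts the G protein. A stretch that the dominant form contains and some coding forms lack is printed because its reads separate these groups. The region chr2:180100887-180101042 (mm10, minus strand, 5′ to 3′, from the GENCODE M21 transcripts) carries in capitals the 96 bases, chr2:180100917-180101012, that those forms lack, with 30 bases on either side.
Hrh3 loop stretch: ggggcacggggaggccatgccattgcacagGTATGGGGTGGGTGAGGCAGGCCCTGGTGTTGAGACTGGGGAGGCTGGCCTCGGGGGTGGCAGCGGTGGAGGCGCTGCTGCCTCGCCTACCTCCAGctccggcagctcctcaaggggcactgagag
The form with the stretch (Hrh3-201, 445 codons) held 77.4% and 75.0% of the gene's TPM in replicates 1 and 2. Coding forms that lack at least these bases received 11.6 and 14.3 estimated counts, against 1606 and 1244 for coding forms that contain them, which is 0.716% and 1.13% of the reads. Most of these reads went to a form of 466 codons that lacks the stretch but has another 3′ end and more codons in all. The share of forms without the stretch was also small in the second quantification, 0.481% and 1.52% of the reads. These are reads over whole transcripts of unlike length. By TPM, which divides by length, the share was 1.48% and 2.31% in the first quantification and 1.07% and 3.51% in the second.

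Of the 32 genes, 21 have several annotated transcripts, and 14 of these had 50 counts or more in each library. The transcript with the largest share was the same in the first and second quantification for 10 of the 14 (by the mean of both libraries) and differed for Drd1, Hrh1, Htr4 and Htr7. For Hrh2 a transcript of the nonsense-mediated decay class, Hrh2-203, held 55.7% and 65.8% of the TPM, so that coding transcripts made up only 44.3% and 34.2%. Coding transcripts of Htr7 took 42.9% and 69.3% in the first tables and 33.1% and 54.4% in the second. The 2 transcripts Adra1b-202 and Adra1b-204, of which only the latter is annotated as coding, had equal values within each library (258 estimated counts in replicate 1 and 168 in replicate 2), and both are 3047 bases long.

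**Figure D2:**
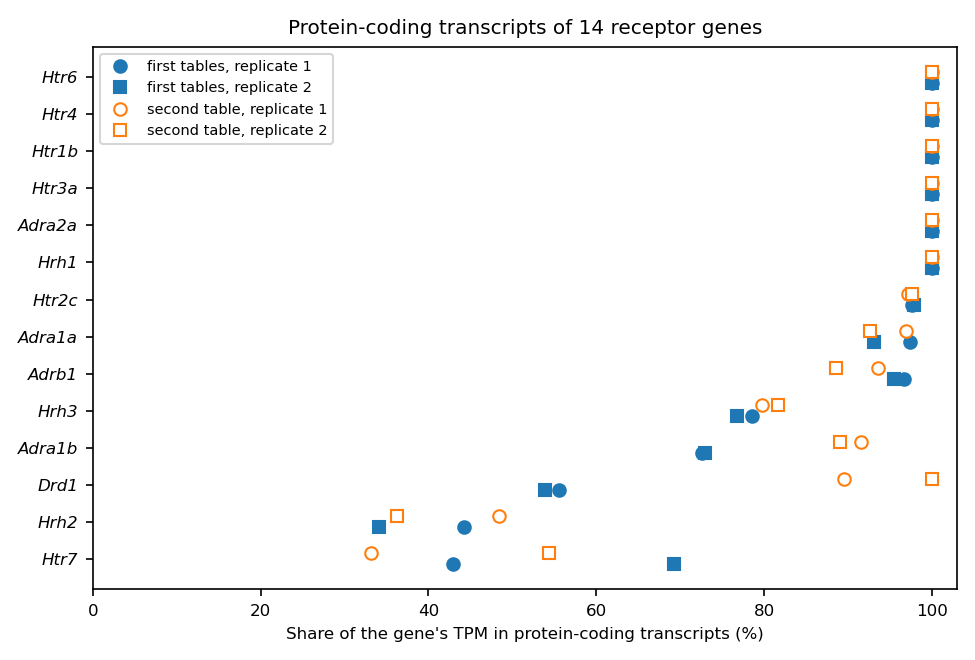
Share of each gene's TPM in transcripts annotated as protein-coding, in percent, for the 14 receptor genes with several transcripts and enough counts, with filled blue symbols for the first tables, open orange symbols for the second, circles for replicate 1 and squares for replicate 2. Hrh2, Htr7 and Drd1 have the smallest coding shares in the first tables, and Drd1 moves from 55.5% and 53.9% in the first tables to 89.6% and 100% in the second.

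The plot of coding shares shows that the libraries differ most for Htr7 (42.9% and 69.3% in the first tables) and Hrh2 (44.3% and 34.2%). The quantifications differ most for Drd1. At 100% in both libraries and both quantifications were Htr1b, Htr3a, Htr4, Htr6, Adra2a and Hrh1. None of these has an annotated noncoding transcript, so their coding shares could not differ.

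The libraries were then compared with each other. Rounded expected counts of the 18887 genes that reached 10 counts in either library were set side by side in an exact binomial test, two-sided. It takes counting error alone, so it says whether these libraries differ and nothing of other mice. At an adjusted p under 0.05, 3738 genes were called, 19.8% of those tested, 8.53% higher and 11.3% lower in replicate 2. Of the 28 receptor genes tested, 10 were called, 4 higher and 6 lower, and 18 were not. Calls grow more frequent with counts: among genes with a mean of 500 to 2000 counts 21.6% were called, and 6 of the 11 receptor genes in that range. The shares were 15.6% and 1 of 6 receptor genes at 200 to 500 counts, and 11.2% and 1 of 7 at 50 to 200 counts. The median log2 ratio of replicate 2 over replicate 1 was -0.06 over the receptor genes and 0.00 over all tested genes, and the median absolute log2 ratio was 0.22 and 0.12.

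**Figure D3:**
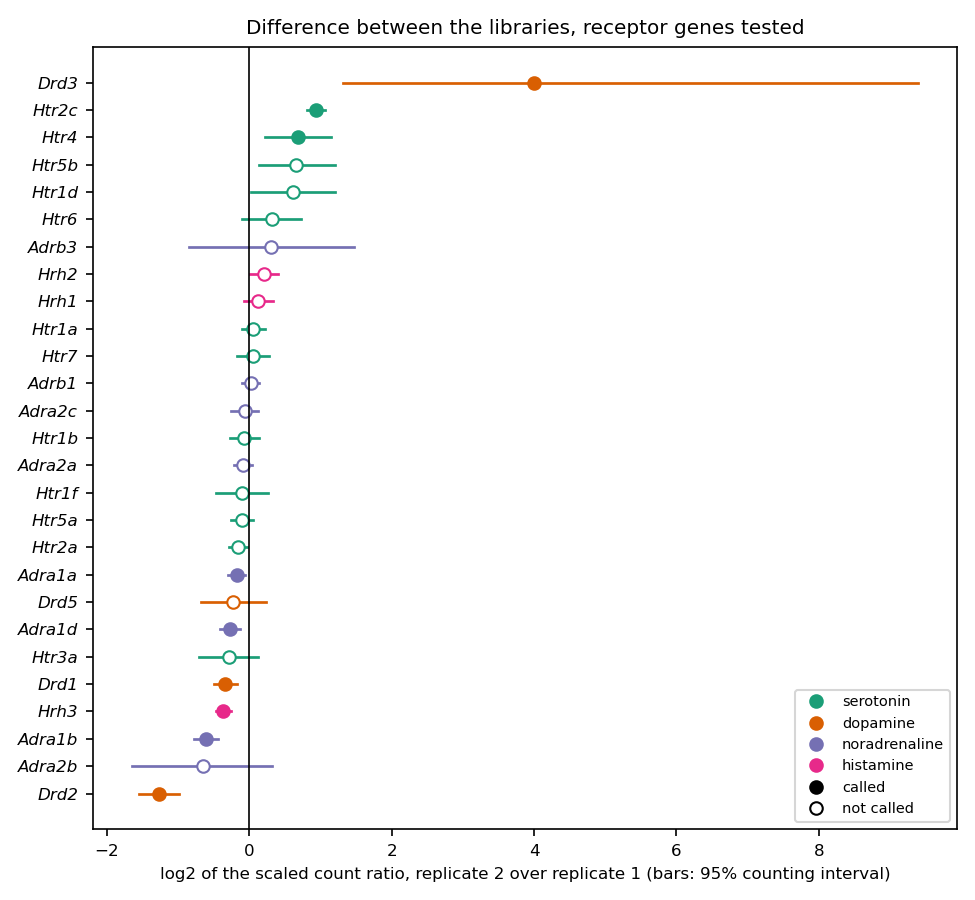
Difference between the libraries for receptor genes tested, as log2 of the scaled count ratio of replicate 2 over replicate 1 with its 95% counting interval; filled symbols passed the exact binomial test at an adjusted p under 0.05. Drd2 lies farthest to the left, Htr2c has a narrow interval to the right of 0, and the interval of Drd3 (1 and 16 counts) is by far the widest.

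Htr2c was 1.92-fold higher in replicate 2 (95% counting interval 1.76 to 2.09, exact binomial test, adjusted p = 3.4e-51). Drd2 was 2.40-fold lower (1.98 to 2.92, adjusted p = 1.2e-19). These were the clearest differences in the plot of library ratios, and with an assumed biological spread (edgeR, dispersion 0.01), under which 182 genes or 0.964% of those tested were called, only Htr2c (adjusted p = 0.0028), Drd2 (adjusted p = 0.00014) and Drd3 (adjusted p = 0.047) among the receptor genes still passed. In bulk tissue, fewer cells of a type and less RNA per cell cannot be told apart.

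Adra1b was 1.52-fold lower in replicate 2 (interval 1.35 to 1.70), Hrh3 1.28-fold lower (1.20 to 1.38), Drd1 1.26-fold lower (1.13 to 1.41), Adra1d 1.20-fold lower (1.09 to 1.33) and Adra1a 1.13-fold lower (1.04 to 1.23). Htr4 was 1.60-fold higher (1.16 to 2.22). Drd3 had a ratio of 16.0 with an interval from 2.49 to 671. The call for Adra1a was lost when libraries were scaled by total counts or by spike-ins. Genes that did not pass included Htr2a (1.11-fold lower, interval 1.02 to 1.21, adjusted p = 0.076 by the exact binomial test) and Htr5b (1.58-fold higher, 1.10 to 2.30, adjusted p = 0.062). For Adrb1 the interval of the ratio ran from 0.930 to 1.11, and for Htr1a from 0.928 to 1.16.

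Choroid plexus epithelium, the tissue that makes cerebrospinal fluid, is known for very high Htr2c. Of its 8 markers, 7 were higher in replicate 2 and none was lower. Ttr, the transthyretin gene that dominates this tissue, rose from 230 to 2926 counts (9.86 and 131 TPM), 12.7-fold. Folr1 was 8.51-fold higher (4 and 34 counts), Slc4a5 7.01-fold (5 and 35) and Otx2 5.0-fold (4 and 20). Clic6 was 2.72-fold higher (25 and 68 counts) and Kl 1.43-fold (113 and 162). The folds of Folr1, Slc4a5 and Otx2 rest on few reads in replicate 1, so their size is imprecise. Of the 8 markers, 4 were under 1 TPM in both libraries. The summed level of the 8 markers was 12.5 TPM in replicate 1 and 139 TPM in replicate 2, and none was at 0 in either library. Without Ttr the sums were 2.59 and 7.83 TPM. Their part in the Htr2c difference was not tested.

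Drd1 and Drd2 are most abundant in the projection neurons of the striatum, which lies beneath the cortex. Of 10 striatal markers, 7 were lower in replicate 2, 1 was higher and 2 did not pass. Adora2a, the adenosine receptor of the Drd2-expressing striatal cells, was 2.03-fold lower (707 and 348 counts), Ppp1r1b, which encodes DARPP-32, 1.82-fold lower, Rgs9 1.72-fold lower, Pde10a 1.53-fold lower and Gng7 1.26-fold lower. Tac1, a peptide gene of the Drd1-expressing cells, had 274 and 286 counts, and Isl1 was higher, at 13 and 45 counts. The summed level of the list was 419 TPM in replicate 1 and 283 TPM in replicate 2, and no marker was at 0. Drd3 went the other way from Drd1 and Drd2. The part of striatal RNA in these differences was not tested.

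**Figure D4:**
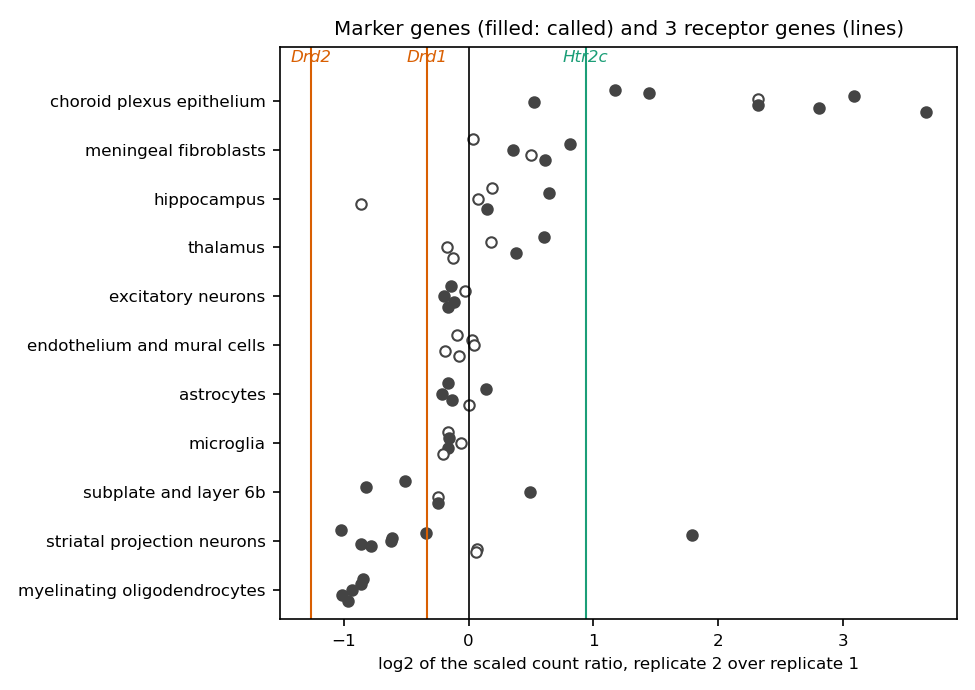
Log2 of the scaled count ratio, replicate 2 over replicate 1, for marker genes of 11 cell types or regions (points; filled where the exact binomial test passed) and for Htr2c, Drd1 and Drd2 (vertical lines). Choroid plexus markers lie to the right of 0, up to Ttr at 12.7-fold, while all 5 markers of myelinating oligodendrocytes and 7 of 10 striatal markers were called lower; 1 of these is not drawn.

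Other marker lists in the plot of markers by cell type also moved. Over all tested genes 8.53% were called higher and 11.3% lower, and calls grow more frequent with counts. All 5 myelinating oligodendrocyte markers were lower in replicate 2, with a summed level of 2059 TPM in replicate 1 and 1139 TPM in replicate 2. Of the 5 markers each, 3 of meningeal fibroblasts, 2 of thalamus and 2 of hippocampus were higher and none lower, whereas 4 of excitatory neurons and 2 of microglia were lower and none higher. Subplate and layer 6b markers gave 1 higher and 3 lower, astrocyte markers 1 and 3, and endothelial and mural markers none in either direction. Of the 7 markers of 5-HT3A interneurons, 3 were higher and 3 lower, while Htr3a itself did not pass (1.22-fold lower, interval 0.915 to 1.63). The part of these cells in the receptor differences was not tested.

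The genes that make, store, take up and break down the transmitters showed which parts of the system had messages in the cortex. Of 18 such genes, 7 were detected. Among them were the plasma membrane monoamine transporter Slc29a4 at 15.5 ± 2.79 TPM and Hnmt, which inactivates histamine, at 13.5 ± 0.0283 TPM. In contrast 10 stayed under 1 TPM in both libraries, among them the transporters of serotonin (Slc6a4, 1 and 0 counts), dopamine (Slc6a3, 8 and 8 counts) and noradrenaline (Slc6a2, 15 and 19 counts). Th, the first enzyme of catecholamine synthesis, was at the border with 1.00 and 0.990 TPM. Of 13 genes tested, Slc29a4 (1.22-fold) and Slc18a2 (2.78-fold, 9 and 25 counts) were higher in replicate 2 and Ddc was 1.84-fold lower. Of 10 markers of monoaminergic cell bodies, only Ddc was detected, 8 were under 1 TPM in both libraries, and Fev, a transcription factor of serotonergic neurons, was at 0. Apart from Fev, these markers are also among the 18 genes above.

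Downstream of the receptors, all 14 genes for G proteins and their effectors were detected, with a median of 84.0 TPM in replicate 1 and 79.1 TPM in replicate 2. Gnas, which encodes the Gs alpha subunit, stood at 934 ± 30.7 TPM, Gnao1 at 446 ± 4.82 TPM and the cyclase gene Adcy1 at 159 ± 11.3 TPM. None was higher in replicate 2 and 7 were lower, beside 8.53% higher and 11.3% lower among all tested genes. Lower by most were Ppp1r1b (1.82-fold), Adcy5 (1.27-fold), Plcb4 (1.20-fold), Adcy1 (1.15-fold) and Gnal (1.11-fold). Calls grow more frequent with counts, and the 7 included Gnao1 at 1.03-fold (26238 and 25415 counts). Ppp1r1b is also among the striatal markers above. All 7 receptor kinases and arrestins were detected, led by Grk2 (79.4 ± 3.13 TPM), Arrb1 (76.8 ± 5.41 TPM) and Grk6 (31.2 ± 1.33 TPM); Grk3 was 1.09-fold higher, and Arrb1 (1.07-fold) and Grk2 (1.06-fold) were lower. All 8 scaffolds and partners were detected, led by the synaptic scaffolds Dlg4 (484 ± 15.2 TPM) and Ppp1r9b (251 ± 16.4 TPM) and the dopamine receptor partner Caly (99.9 ± 8.46 TPM). Caly was 1.09-fold higher, and Ppp1r9b (1.14-fold), Ric3 (1.13-fold) and Dlg4 (1.10-fold) were lower.

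The members also differ in the structure of their genes. The coding sequence lies in a single exon in 12 of them, of which 9 were detected, and is split over several in 20, of which 14 were detected. Median levels were 5.69 TPM for the former and 3.81 TPM for the latter. Of the 24 members with an entry in the RefSeq promoter table (GRCm38.p6, 250 bases before to 50 after the start), 18 were detected. The dinucleotide CG, which reads the same on both strands, occurred 20 times or more in 26.5% of all 32851 promoters. It did so in 10 of the 18 detected members and in 2 of the 6 others, taking the richest promoter where a gene has several. That choice can only raise a gene's count. It applied to 6 members, namely the detected Adra1b, Drd1, Hrh1, Hrh2 and Htr6, and Htr1d among the others. The 26.5% counts every promoter singly, so it is not a like measure. Hrh3, the highest gene, had 47 CG, and Htr3b and Drd3 had 2 each. Adra2b, under 1 TPM in both libraries, had 29, and Htr2c had 5, so levels did not follow CG content gene by gene.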

How the data were processed

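Total RNA depleted of ribosomal RNA was measured in 2 libraries of 1 group. Each library has 3 tables deposited by the authors: genes and transcripts of a first quantification and transcripts of a second, on mm10 with GENCODE M21, per the README texts among the deposited files. The sources used here do not give tools, settings or the strand of counting. Expected counts in the first tables and estimated counts in the second are unnormalised reads per feature, per the file headers. TPM values were scaled by the authors over all rows, spike-ins included. The first tables also hold percent values (the share of a transcript in its gene) and posterior SDs, deposited by the authors; the posterior SD of the count was 0 for all members. As mm10 is a C57BL/6J assembly, reads of CAST/EiJ alleles had to be assigned to it too. Whether some of those reads were lost was not tested.

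Numbered rows that name no gene held 1.49e-05% and 1.51e-05% of counts and were left out. Libraries were compared gene by gene with an exact binomial test (two-sided) of the expected counts, rounded, against the share given by edgeR 4.0.16 TMM library sizes. Benjamini-Hochberg adjustment covered the 18887 genes that reached 10 counts in either library (R 4.3.3, SciPy 1.17.1). The test was checked on simulated counts with counting error alone, which cannot show how it behaves with a spread between animals. Log2 ratios use CPM + 0.5, which understates changes of low genes; folds and their exact intervals use counts alone. Intervals cover counting error only. Transcript shares were computed from the deposited values. Protein identity was computed with Biopython 1.88 from translated coding sequences of the annotation. Alternatives were other scalings (DESeq2 1.42.0 among them), filters, thresholds, pseudocounts, the second quantification and an assumed dispersion.

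Members are named, except 1 that is not reported here. Of the pathway, choroid plexus and striatal lists, the 3 highest genes, up to 5 genes under 1 TPM and up to 5 called genes with the largest log2 ratios are named, except 2 that are likewise not reported, and Tac1, Th and Fev outside this rule after their values were seen. Of the other marker lists, counts and a few levels are given. Members and lists were chosen with earlier results of these data known.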

Additional observations from a re-analysis of the deposited data

How the results depend on the processing

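The number of detected receptor genes, 23, became 25 at 0.5 TPM, 27 at 10 counts in both libraries and 25 in the second quantification, and was 23 to 25 in a single library. In the second quantification the dopamine share of receptor TPM was 7.36% and the noradrenaline share 42.9% (the cause was not tested), while the other family shares moved by less than the spread between libraries. Members coupled to Gi and to Gq each held 38.1% in that quantification, so the order of these groups is not resolved. Levels there were higher, with a median ratio of 1.41 over detected members and 1.49 over protein-coding genes, and their order was nearly the same (Spearman's rho 0.99 over 32 members, a description). Levels moved by more than their SD for 27 members there and for 29 when TPM was rescaled to nuclear protein-coding genes. Transcript shares did so for 29 transcripts and not for 8. Receptor genes called different numbered 11 with scaling by total counts (Hrh2 and Htr5b gained, Adra1a lost; the median log2 ratio of all genes moved to 0.06, and 2692 genes were higher and 1135 lower), 10 with spike-ins (Htr5b gained, Adra1a lost; 2517 higher, 1211 lower), 10 with DESeq2 size factors and without a filter, and 11 in the second quantification (Htr5b gained). With an assumed dispersion of 0.01 they were 2 higher and 1 lower. The log2 ratio of Adrb1, 0.02, was -0.0039 in the second quantification. Leaving out a library leaves no comparison of libraries. No paired analysis was possible because there is a single group.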
